A study of Mus musculus with 5 samples.

Results

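The genes described are 32 transcripts of fatty acid oxidation and its control, taken by symbol from a list of names out of the 21878 genes measured. They comprise 20 enzymes of beta-oxidation, 8 inducible targets of the nuclear receptor PPAR-alpha, 2 genes of fatty acid uptake and 2 regulators. They were measured in kidney RNA of NZB/NZW F1 mice, a cross of NZB/BINJ females with NZW/LacJ males that spontaneously develops lupus-like nephritis. The 3 diosmetin libraries came from mice injected intraperitoneally, every second day over 6 weeks, with the plant flavone diosmetin at a dose of 50 mg/kg, and the 2 vehicle libraries from mice given vehicle on that schedule. The labels give no age or sex for either group and do not state that each library is a different animal, so the p-values rest on variation among these libraries alone, and that variation could be technical.

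Fatty acids enter the cell through membrane proteins, are activated to acyl-CoA, and pass into mitochondria by the carnitine shuttle, where repeated rounds of dehydrogenation, hydration, a further dehydrogenation and thiolysis shorten them. Very long chains are shortened in peroxisomes instead. PPAR-alpha, activated by fatty acids, raises transcription of many of these enzymes, and more steeply that of acyl-CoA thioesterases, omega-hydroxylases of the Cyp4a family and Pdk4. The proximal tubule, which makes up most of the renal cortex, relies on fatty acid oxidation for its energy and carries much of the kidney's PPAR-alpha.

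Levels are FPKM, fragment numbers scaled to transcript length and to the library's total, as deposited. Depth, inferred from the spacing of low values, lay between 43000000 and 46900000 fragments in the diosmetin libraries and was 38400000 and 48600000 fragments in vehicle replicates 1 and 2. For the 24 members with a known transcript length, the lowest value, that of Pdk4 in vehicle replicate 1, rested on an estimated 1220 fragments, a counting error of 2.86%. This covers counting error only. The correlation of log2 values across genes was lowest between the vehicle libraries (0.992, where other pairs reached 0.997; genes are not independent replicates). Bulk RNA cannot separate fewer cells of a type from less RNA per cell.

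None of the 32 genes differed between diosmetin and vehicle by the test over all genes. All 32 passed the minimum mean of 0.5 FPKM, and 0 of 32 passed limma at an adjusted p of 0.05, as was the case for 0% of the 13290 genes tested. The smallest adjusted p of a member was 0.738, which was also the smallest over all 13290 genes tested. At an unadjusted p under 0.05 stood 2 members, Cpt1b and Acot2, against 6.37% of all genes tested. Both had a higher mean under diosmetin, as 4.68% of all genes did at that level, and 0 members were lower, against 1.69%. The groups did not overlap for 3 of 32 members, Cpt1b, Acot2 and Ppargc1a, a smaller share than the 24.5% of all genes tested. These 3 were higher under diosmetin, against 18.3% of all genes, and 0 members were lower without overlap, against 6.17%. The mean of log2(FPKM + 1) was higher under diosmetin for 20 of 32 members, close to the 63.9% of all genes tested, and every count of higher or lower means uses that scale. By mean FPKM the count was 19, Cyp4a10 being the member that differed.

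The patterns that stood out among the members lay between libraries of the same group. Vehicle replicate 1 was the lowest of the 5 libraries for 18 of 32 members, against 38.7% of all genes tested. The log2 gap between the vehicle libraries exceeded the difference between the groups for 27 of 32 members, against 60.1%. Vehicle replicate 2 lay above vehicle replicate 1 by more than 0.5 on the log2 scale for 9 members, against 6.49%. Diosmetin replicate 1 was the highest library for 17 of 32 members, against 10.9%. The diosmetin libraries spanned more than 0.5 on the log2 scale for 7 members, against 8.16%. Among 95 other tested genes of the pathway, diosmetin replicate 1 was the highest library for 37.9% and vehicle replicate 1 the lowest for 29.5%.

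**Figure D1:**
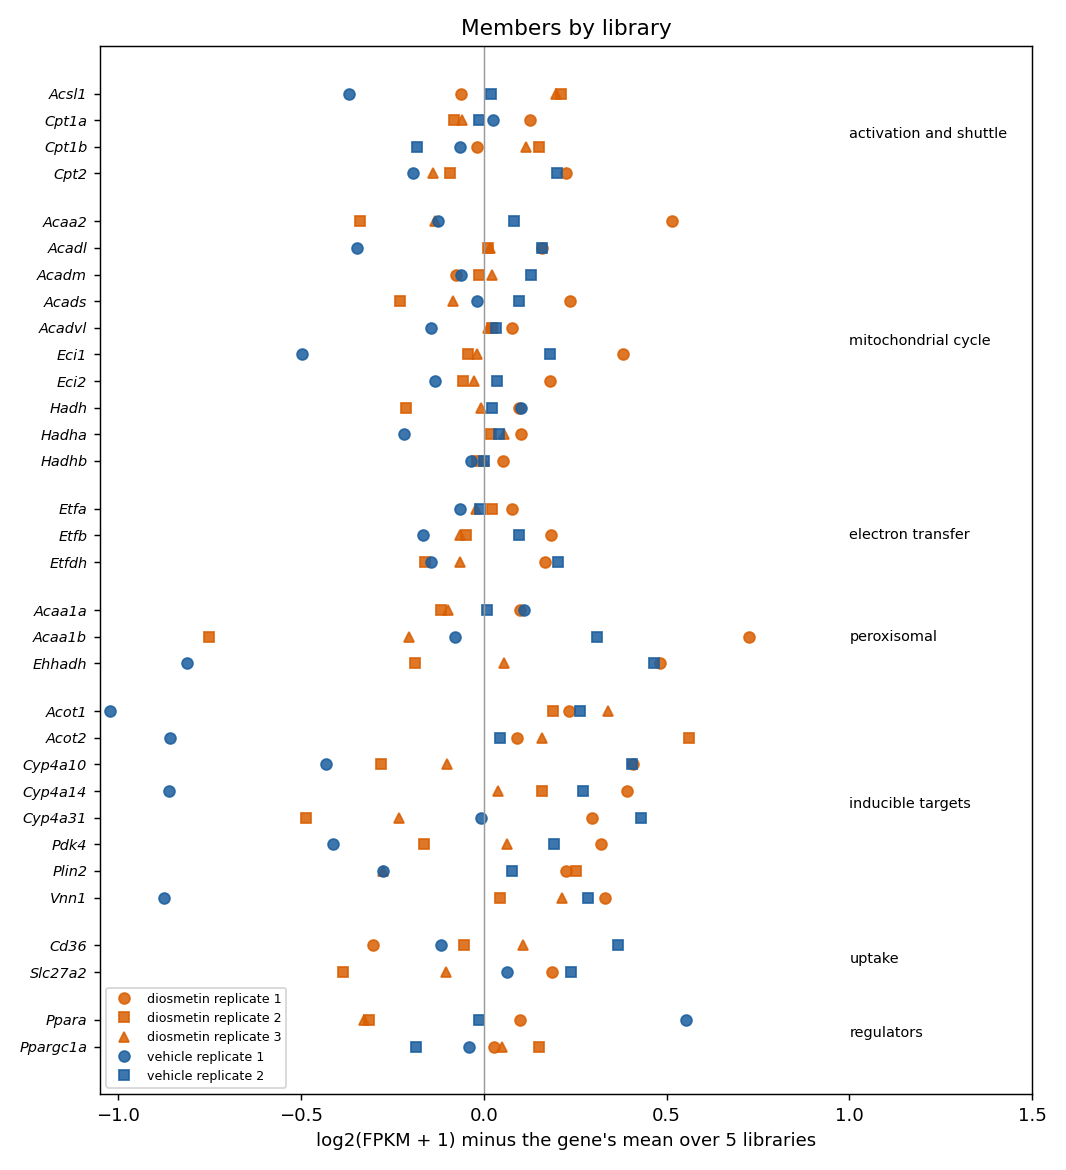
Each row is a gene, grouped by role, and each point a library, placed at its log2(FPKM + 1) minus the gene's mean over 5 libraries. Blue circles (vehicle replicate 1) lie far to the left for Acot1, Acot2, Vnn1, Cyp4a14 and Ehhadh and to the right for Ppara, while orange circles (diosmetin replicate 1) lie to the right for most enzymes.

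Activation and entry into mitochondria rest on Acsl1, which joins long-chain fatty acids to coenzyme A, and on the carnitine palmitoyltransferases. Acsl1 stood at 113, 137 and 136 FPKM under diosmetin, against 91.2 and 119.8 FPKM under vehicle. The groups overlapped, since diosmetin replicate 1 lay between the vehicle libraries, and the log2 difference was 0.29 ± 0.14 (SE, limma adjusted p = 0.738). Cpt1a, the liver-type outer membrane transferase, was at 152, 131 and 133 FPKM under diosmetin and at 141 and 138 FPKM under vehicle. Cpt1b, the muscle-type form, was far less abundant, at 11.9, 13.5 and 13.2 FPKM under diosmetin against 11.5 and 10.5 FPKM under vehicle. The diosmetin libraries all lay above the vehicle ones, with a log2 difference of 0.21 ± 0.08 (SE, limma unadjusted p = 0.0476, adjusted p = 0.738). Cpt2, the inner membrane transferase, was at 76.7, 61.4 and 59.4 FPKM under diosmetin against 57.2 and 75.5 FPKM under vehicle, with a high and a low library in each group.

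In the mitochondrial cycle, the acyl-CoA dehydrogenases each act on a range of chain lengths. Acadm, the medium-chain enzyme, was the most abundant enzyme of this cycle, at 334, 349 and 358 FPKM under diosmetin and at 337 and 385 FPKM under vehicle. Acadl, the long-chain enzyme, was at 222, 200.2 and 201 FPKM under diosmetin, against 156 and 222 FPKM under vehicle, so that vehicle replicate 1 alone stood apart. Acadvl, the very-long-chain enzyme, was at 149, 144 and 142 FPKM under diosmetin against 128 and 145 FPKM under vehicle, and Acads, the short-chain enzyme, at 67.8, 48.8 and 54.1 FPKM under diosmetin against 56.7 and 61.4 FPKM under vehicle. The log2 differences of these dehydrogenases lay between -0.07 and 0.16, within the spread of the libraries.

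Hadha and Hadhb encode the alpha and beta subunits of the mitochondrial trifunctional protein, which carries out the later steps for long chains. Hadha was at 105, 99.04 and 102 FPKM under diosmetin and at 83.9 and 101 FPKM under vehicle. Hadhb was at 51.7, 49.1 and 49.7 FPKM under diosmetin and at 48.6 and 49.8 FPKM under vehicle. Hadhb was the steadiest member, its highest library being 1.06 times its lowest, while Hadha ranged 1.25-fold. Both genes lie head to head on chromosome 5, with 272 bases between their starts in RefSeq (GRCm38.p6). The 250 bases before the start of Hadhb on the plus strand, chr5:30155003-30155252, are shown because nearly all of them also lie upstream of Hadha on the minus strand (capitals, 228 bases), so that 1 stretch precedes both starts.
Hadhb upstream: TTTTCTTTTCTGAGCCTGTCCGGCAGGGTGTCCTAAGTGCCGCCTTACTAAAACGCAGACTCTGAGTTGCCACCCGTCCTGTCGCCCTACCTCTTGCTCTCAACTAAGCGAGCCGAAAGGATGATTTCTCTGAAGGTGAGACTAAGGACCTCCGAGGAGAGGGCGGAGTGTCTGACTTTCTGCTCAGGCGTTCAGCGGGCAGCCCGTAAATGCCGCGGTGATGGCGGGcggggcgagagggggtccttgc

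The remaining enzymes of the cycle varied most where 1 library stood apart. Eci1, an isomerase that prepares unsaturated fatty acids, was at 137, 102 and 104 FPKM under diosmetin, against 74.1 and 119 FPKM under vehicle. Vehicle replicate 1 was the lowest and diosmetin replicate 1 the highest, and the difference was 0.27 ± 0.22 on the log2 scale (SE, limma adjusted p = 0.798). Acaa2, the mitochondrial thiolase, was at 207, 114 and 132 FPKM under diosmetin and at 133 and 153 FPKM under vehicle, with diosmetin replicate 1 alone high. Eci2, a further isomerase, was at 52.6, 44.5 and 45.4 FPKM under diosmetin against 42.1 and 47.5 FPKM under vehicle, and Hadh, the short-chain hydroxyacyl-CoA dehydrogenase, at 208, 168 and 194 FPKM under diosmetin against 209 and 198 FPKM under vehicle. Neither separated the groups.

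Electrons from the acyl-CoA dehydrogenases pass to the flavoprotein encoded by Etfa and Etfb and from there, by Etfdh, to ubiquinone. Etfa was at 154, 149 and 144 FPKM under diosmetin and at 139.96 and 145 FPKM under vehicle. Etfb was at 319, 271 and 268 FPKM under diosmetin and at 249.9 and 300.4 FPKM under vehicle. Etfdh was at 95.4, 75.8 and 81.0 FPKM under diosmetin against 76.7 and 97.8 FPKM under vehicle. Each group held a high and a low library for Etfb and Etfdh, and all 3 log2 differences lay between -0.05 and 0.06.

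Of the 3 peroxisomal enzymes, Ehhadh and Acaa1b varied widely between libraries and Acaa1a did not. Ehhadh, the bifunctional enzyme that hydrates and dehydrogenates in peroxisomes and is a classical PPAR-alpha target, was at 603, 379 and 448 FPKM under diosmetin, against 246 and 596 FPKM under vehicle. Its vehicle libraries differed by 2.43 times, more than in all but 0.978% of genes tested, and every diosmetin library lay above vehicle replicate 1. Acaa1b, a peroxisomal thiolase, was at 196, 69.9 and 103 FPKM under diosmetin and at 112 and 147 FPKM under vehicle. Its diosmetin libraries spanned 2.81 times, a range that 0.241% of genes exceeded, with the vehicle libraries inside it. Acaa1a, its paralog, was at 45.0, 38.6 and 39.2 FPKM under diosmetin against 45.4 and 42.2 FPKM under vehicle. The coding sequences of the thiolase pair are 96.54% identical in GENCODE and share an identical run of 327 bases, longer than a 150 base read, so fragments could have been divided between them. Their summed levels were 241, 109 and 142 FPKM under diosmetin and 157 and 189 FPKM under vehicle.

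The inducible targets showed the same low vehicle library more strongly. Acot1 encodes a cytosolic thioesterase that frees fatty acids from coenzyme A, and it stood at 125, 121 and 134 FPKM under diosmetin, against 51.6 and 127 FPKM under vehicle. The diosmetin libraries lay close together and around vehicle replicate 2, which was 2.47 times vehicle replicate 1. The log2 difference was 0.63 ± 0.34 (SE, limma adjusted p = 0.739). Acot2, the mitochondrial thioesterase, was at 37.9, 52.9 and 39.7 FPKM under diosmetin, against 19.1 and 36.7 FPKM under vehicle. The groups did not overlap, although vehicle replicate 2 lay just under diosmetin replicate 1, and the log2 difference was 0.68 ± 0.28 (SE, limma unadjusted p = 0.0488, adjusted p = 0.738). Without vehicle replicate 1 the log2 difference was -0.011 for Acot1 and 0.23 for Acot2.

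Acot1 and Acot2 are neighbours on chromosome 12, with 21641 bases between their starts, and their coding sequences are 95.55% identical, with an identical run of 273 bases. Fragments could have been divided between them, and their summed levels were 163, 174 and 174 FPKM under diosmetin against 70.7 and 164 FPKM under vehicle. Acot1 held between 69.6% and 77.2% of the sum in the diosmetin libraries and 73.0% and 77.7% in the vehicle libraries, a narrower spread than that of the sum. The 250 bases before each start are shown because these transcripts were both low in vehicle replicate 1. Their longest identical run, in capitals, is 9 bases, and the aligned bases are 59.0% identical, so the likeness of the coding sequence does not extend upstream. Both lie on the plus strand in RefSeq (GRCm38.p6), Acot1 at chr12:84009252-84009501 and Acot2 at chr12:83987611-83987860.
Acot1 upstream: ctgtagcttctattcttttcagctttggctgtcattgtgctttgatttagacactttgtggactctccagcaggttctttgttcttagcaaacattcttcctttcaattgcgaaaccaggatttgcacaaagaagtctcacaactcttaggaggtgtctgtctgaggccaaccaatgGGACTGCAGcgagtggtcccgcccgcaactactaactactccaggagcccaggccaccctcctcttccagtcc
Acot2 upstream: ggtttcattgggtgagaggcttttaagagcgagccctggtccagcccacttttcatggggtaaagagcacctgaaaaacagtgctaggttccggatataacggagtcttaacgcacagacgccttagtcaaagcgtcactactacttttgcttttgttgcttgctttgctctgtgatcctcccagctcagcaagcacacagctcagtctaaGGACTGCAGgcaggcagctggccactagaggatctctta

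Vnn1, a pantetheinase that releases the coenzyme A precursor, was at 107, 87.5 and 98.4 FPKM under diosmetin, against 45.8 and 103 FPKM under vehicle, with vehicle replicate 1 alone low. Pdk4, the kinase that shuts pyruvate out of oxidation, was at 15.8, 11.03 and 13.1 FPKM under diosmetin, against 9.12 and 14.4 FPKM under vehicle. Plin2, which coats lipid droplets, was at 29.3, 29.9 and 20.5 FPKM under diosmetin against 20.5 and 26.4 FPKM under vehicle. For Plin2, diosmetin replicate 3 (20.47 FPKM) was nearly as low as vehicle replicate 1 (20.45 FPKM). The log2 differences were 0.49 ± 0.32 for Vnn1, 0.18 ± 0.21 for Pdk4 and 0.17 ± 0.19 for Plin2 (SE).

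The Cyp4a enzymes hydroxylate the far end of fatty acids, arachidonic acid among them. Cyp4a14 was at 806, 685 and 631 FPKM under diosmetin, against 337 and 740.2 FPKM under vehicle. Cyp4a10 was at 709, 439 and 498 FPKM under diosmetin, against 395 and 708 FPKM under vehicle. Vehicle replicate 1 was the lowest library for both, but for Cyp4a10 diosmetin replicate 2 lay nearly as low. The mean of Cyp4a10 was 549 FPKM under diosmetin and 552 FPKM under vehicle, while its log2 difference was 0.02 ± 0.30 (SE), a sign that differs between the scales and also turned with median-of-ratios scaling, quantile normalization and array weights. Cyp4a31 was at 255, 148 and 176 FPKM under diosmetin, against 206 and 280.0 FPKM under vehicle, with a log2 difference of -0.35 ± 0.25 (SE, limma adjusted p = 0.771). Cyp4a10 and Cyp4a31 are 96.59% identical in their coding sequence, and their sum was 964, 587 and 674 FPKM under diosmetin against 602 and 988 FPKM under vehicle. Cyp4a14 is less alike, at 77.59% identity with Cyp4a10, and their longest identical run is 23 bases.

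**Figure D2:**
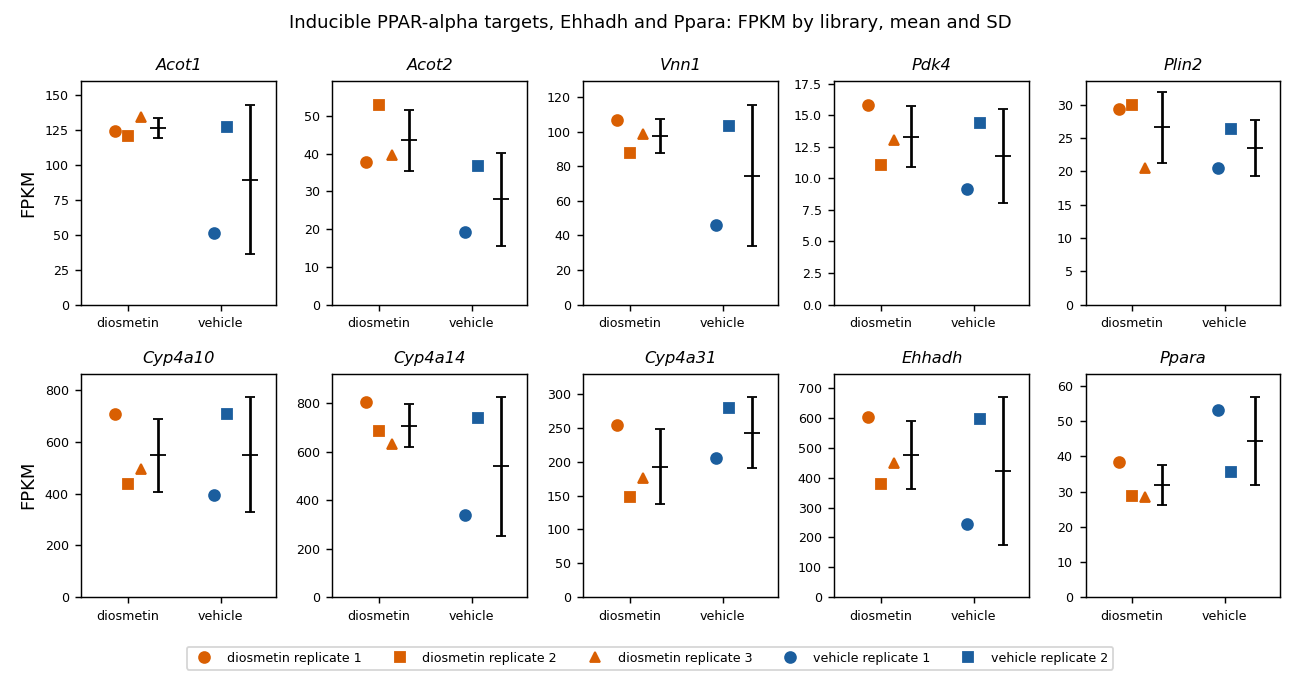
FPKM on linear axes from 0 for the 8 inducible targets, Ehhadh and Ppara, with diosmetin left and vehicle right. Symbols are libraries and black bars the mean and SD of 3 diosmetin or 2 vehicle libraries. Vehicle replicate 1 (blue circle) is the lowest point for Acot1, Acot2, Vnn1, Pdk4, Cyp4a10, Cyp4a14 and Ehhadh and the highest for Ppara. For Plin2 it lies almost level with diosmetin replicate 3.

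Fatty acid uptake is served by Slc27a2, a transporter and very-long-chain acyl-CoA synthetase of the proximal tubule, and Cd36, a scavenger receptor that binds fatty acids. Slc27a2 ranked 9 of 21878 genes by mean FPKM, at 1628, 1094 and 1330.4 FPKM under diosmetin, against 1496 and 1689 FPKM under vehicle. Cd36 was at 16.2, 19.4 and 21.8 FPKM under diosmetin and at 18.6 and 26.3 FPKM under vehicle. Means were lower under diosmetin for both, with log2 differences of -0.25 ± 0.20 for Slc27a2 and -0.21 ± 0.18 for Cd36 (SE), and their groups overlapped.

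Among the regulators, Ppara was highest in the library where most inducible targets were lowest. It stood at 38.6, 28.7 and 28.4 FPKM under diosmetin, against 53.1 and 35.6 FPKM under vehicle. Vehicle replicate 1 was the lowest for 7 of 8 inducible targets, with Plin2 nearly tied, and the highest for the receptor. The other 4 libraries stood in the same order for Ppara as for the median inducible target. That order was not tested, and diosmetin replicates 2 and 3 were nearly equal for Ppara. The log2 difference was -0.45 ± 0.20 (SE, limma unadjusted p = 0.0664, adjusted p = 0.738), a size that 2.11% of genes exceeded, and it was -0.17 without vehicle replicate 1. Ppargc1a, the coactivator PGC-1-alpha, was at 16.1, 17.7 and 16.4 FPKM under diosmetin, against 15.4 and 13.8 FPKM under vehicle. Its groups did not overlap, with a log2 difference of 0.19 ± 0.08 (SE, limma unadjusted p = 0.0517, adjusted p = 0.738). With 5 libraries no correlation between regulator and targets was computed.

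**Figure D3:**
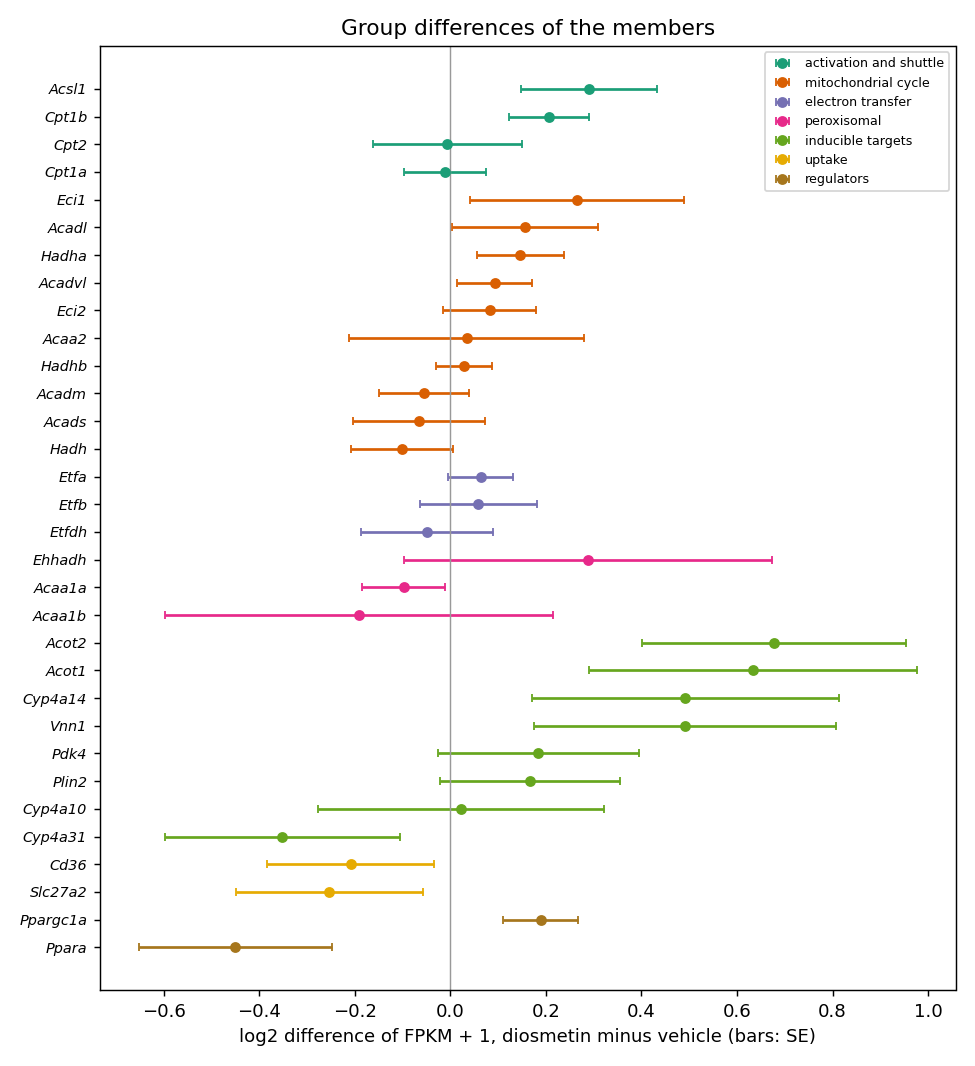
Points are log2 differences of FPKM + 1, diosmetin minus vehicle, for the 32 members by role, and bars are standard errors from limma. Acot2 and Acot1 lie farthest to the right at 0.68 and 0.63, Ppara farthest to the left at -0.45, and the mitochondrial cycle between -0.10 and 0.27.

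Set side by side, the inducible targets had the larger median difference and the larger spread. The log2 mean was higher under diosmetin for 7 of 8 inducible targets (6 by mean FPKM, without Cyp4a10) and for 12 of 20 beta-oxidation enzymes. The median of the log2 differences was 0.34 for the inducible targets and 0.05 for the enzymes, beside 0.04 over all genes tested. There was no overlap between groups for 1 of 8 targets and 1 of 20 enzymes, both higher under diosmetin, against 18.3% of all genes. The median absolute gap between the vehicle libraries was 0.87 for the inducible targets and 0.20 for the enzymes, beside 0.12 over all genes, and it exceeded the group difference for 8 of 8 inducible targets and 17 of 20 enzymes. No test of this contrast is given, because the members were listed with results of these data known.

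By library, the median inducible target lay 0.31, 0.10 and 0.05 above its 5-library mean under diosmetin, against -0.65 and 0.27 in vehicle replicates 1 and 2 (log2). The median enzyme lay at 0.14, -0.05 and -0.02 under diosmetin, against -0.13 and 0.06 under vehicle. Both sets were thus lowest in vehicle replicate 1 and highest in diosmetin replicate 1, the inducible targets with the wider spread. Without vehicle replicate 1 the median log2 difference was -0.081 for the inducible targets and -0.066 for the enzymes, and without vehicle replicate 2 it was 0.77 for the inducible targets and 0.14 for the enzymes. Without diosmetin replicate 1 the enzymes' median was -0.0075. The direction for the inducible targets therefore rested on vehicle replicate 1.

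**Figure D4:**
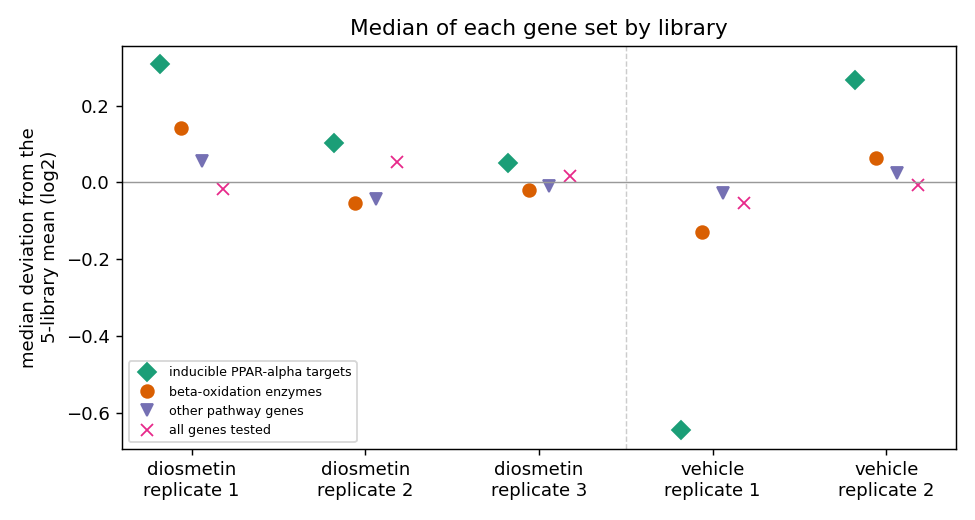
The vertical axis is the median, over a gene set, of log2(FPKM + 1) minus each gene's mean over 5 libraries, and the horizontal axis gives the libraries, diosmetin left of the dashed line and vehicle right. The inducible targets (diamonds) lie at -0.65 in vehicle replicate 1 and between 0.05 and 0.31 elsewhere, while all genes tested (crosses) stay within -0.05 and 0.05.

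**Figure D5:**
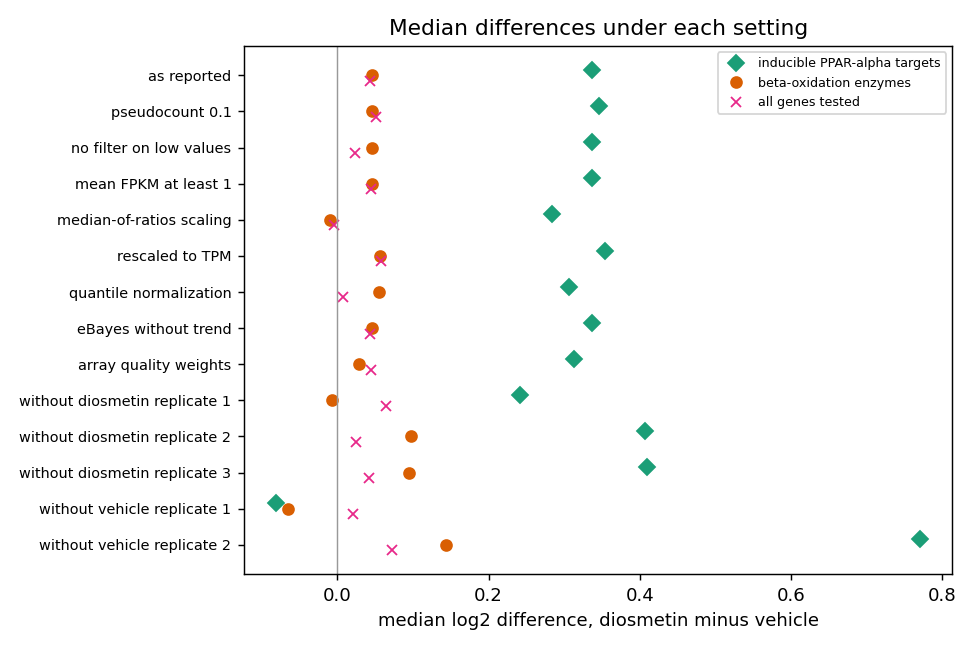
Median log2 differences, diosmetin minus vehicle, of the inducible targets, the enzymes and all genes tested, with 1 row per processing setting. The inducible targets lie between 0.24 and 0.41 in most rows, at -0.081 without vehicle replicate 1 and at 0.77 without vehicle replicate 2.

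Other genes of the pathway, 95 of 104 listed being abundant enough to test, had a median close to that of all genes. Their median log2 difference was 0.02, with 54 higher and 41 lower, and 0 passed the adjusted test. At an unadjusted p under 0.05 there were 8, of which 3 were higher and 5 lower under diosmetin, and the groups did not overlap for 22. Of all genes tested, 6.37% stood at that level and 24.5% did not overlap. Among further mitochondrial dehydrogenases, Acad9, better known for assembling respiratory complex I, was at 23.4, 22.4 and 25.6 FPKM under diosmetin against 28.5 and 28.6 FPKM under vehicle. Acad10 was at 25.6, 23.7 and 27.2 FPKM under diosmetin against 30.9 and 29.0 FPKM under vehicle. Both had lower values in every diosmetin library, with limma unadjusted p = 0.0143 and 0.0281, adjusted p = 0.738 for each.

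Peroxisomal genes outside the list of 32 leaned lower, with lower diosmetin means for 14 of the 21 tested and higher means for 7. Of all genes tested, 63.9% had a higher mean. Lower without overlap between the groups were 4 of the 21, against 6.17% of all genes. Pecr, a peroxisomal enoyl-CoA reductase, was at 105, 80.4 and 90.4 FPKM under diosmetin, against 134 and 113 FPKM under vehicle. Amacr, a racemase needed for branched chains, was at 31.6, 24.0 and 28.4 FPKM under diosmetin against 36.2 and 33.3 FPKM under vehicle, and Acox2, the branched-chain oxidase, at 47.5, 35.0 and 44.5 FPKM under diosmetin against 50.2 and 58.9 FPKM under vehicle. Pecr, Amacr and Acox2 were among those without overlap, with log2 differences of -0.42 ± 0.13, -0.31 ± 0.12 and -0.37 ± 0.14 (SE, limma adjusted p = 0.738 for each). In the same list Ech1 and Pex11a had higher means, at 0.19 ± 0.14 and 0.25 ± 0.20 (log2, SE).

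Among other targets of PPAR-alpha, Fabp1 and Ucp2 varied widely between libraries of the same group. Fabp1, the liver-type fatty acid binding protein, was at 49.0, 12.4 and 22.3 FPKM under diosmetin, against 4.66 and 20.5 FPKM under vehicle. Diosmetin replicate 1 was its highest library and vehicle replicate 1 its lowest. Ucp2, a mitochondrial carrier, was at 122, 103 and 102 FPKM under diosmetin against 62.4 and 122 FPKM under vehicle, lowest in vehicle replicate 1, as were 7 of 8 inducible targets. Of the genes with the smallest p-values in this list, Acsl4, which activates arachidonic acid, was at 30.6, 32.02 and 29.4 FPKM under diosmetin against 25.1 and 28.2 FPKM under vehicle (limma unadjusted p = 0.0415, adjusted p = 0.738).

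Partners of the receptor lay close together. Rxra, its dimer partner, had 34.3, 31.1 and 33.4 FPKM under diosmetin and 33.4 and 31.1 FPKM under vehicle, and Ncor1, a corepressor, at 38.4, 36.6 and 37.6 FPKM under diosmetin against 38.8 and 37.2 FPKM under vehicle. Acaca, the acetyl-CoA carboxylase whose product blocks entry into mitochondria, was at 8.60, 10.01 and 8.84 FPKM under diosmetin against 6.39 and 7.64 FPKM under vehicle. Esrrb, an orphan receptor, was at 11.4, 16.4 and 13.1 FPKM under diosmetin against 10.1 and 10.2 FPKM under vehicle. Neither Acaca nor Esrrb overlapped between the groups, with log2 differences of 0.34 ± 0.11 and 0.38 ± 0.14 (SE, limma unadjusted p = 0.0169 and 0.0345, adjusted p = 0.738 for each).

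Markers of cell types also differed between libraries. All 12 markers of the early proximal tubule had a lower mean under diosmetin, where 63.9% of all genes had a higher one. The groups did not overlap for 3 of these 12, against 6.17% of all genes lower without overlap. Summed levels were 5398 to 7248 FPKM under diosmetin against 8603 and 6657 FPKM under vehicle, Miox and Slc34a1 being among the most abundant. The highest of these sums was in vehicle replicate 1, the library lowest for 7 of 8 inducible targets. The 8 markers of the late proximal tubule were mixed, with 5 lower and 3 higher means. Those 3 higher markers did not overlap between the groups, against 18.3% of all genes. Acsm3 and Cyp7b1 among them were low, at means of 1.64 and 0.882 FPKM. The most abundant of the 8, Slc6a18, Slc22a7 and Slc22a13, had lower means, and their groups overlapped. Macrophage markers, 9 in all, summed to 118, 56.2 and 60.2 FPKM under diosmetin and to 33.1 and 170 FPKM under vehicle. All 9 were lowest in vehicle replicate 1 (against 38.7% of all genes) and highest in vehicle replicate 2 (against 17.8%). Loop and distal markers all had a higher mean (9 of 9, against 63.9% of all genes), 2 of them without overlap (against 18.3%). They summed to 3348 to 4396 FPKM under diosmetin against 3208 and 3441 FPKM under vehicle. Collecting duct markers all had a higher mean (10 of 10, against 63.9% of all genes), 9 of them without overlap (against 18.3%), and summed to 436 to 476 FPKM under diosmetin against 327 and 382 FPKM under vehicle. Of the 18 clock genes, 9 were highest and 2 lowest in vehicle replicate 1, against 14.7% and 38.7% of all genes. In diosmetin replicate 1, 3 were highest and 3 lowest, against 10.9% and 20.7%. Dbp, at 26.2, 15.4 and 13.6 FPKM under diosmetin against 27.0 and 17.1 FPKM under vehicle, was high in both of these libraries. Arntl ran the other way, at 1.68, 2.31 and 3.79 FPKM under diosmetin against 1.63 and 2.73 FPKM under vehicle. The part of these differences in the values of the oxidation genes was not tested.

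Markers of tissues outside the kidney were mixed. Of the 10 fat cell markers, Adipoq, Plin1 and Adrb3 were each at or below 0.0835 FPKM in every library. Cfd reached 0.281 FPKM in vehicle replicate 1 and Cidec 0.150 FPKM in diosmetin replicate 2. Pck1 and Fabp4 of that list were far higher and are also made by renal cells. The 9 skeletal muscle markers summed to between 0.691 and 1.49 FPKM under diosmetin and to 0.585 and 1.29 FPKM under vehicle, while Cpt1b alone was above 10 FPKM. The 9 liver markers summed to 36.8, 28.9 and 39.5 FPKM under diosmetin and to 69.8 and 48.9 FPKM under vehicle, with Cyp2c29 listed at 0 in every library. Most of the vehicle sums was Ttr, at 12.1, 9.54 and 13.6 FPKM under diosmetin against 54.0 and 29.3 FPKM under vehicle. Apoa1 was lowest in vehicle replicate 1 instead, at 14.1, 10.8 and 15.5 FPKM under diosmetin against 3.37 and 10.9 FPKM under vehicle, and the part of these markers in the results was not tested. Transcripts of 4 genes on the Y chromosome summed to at most 0.0534 FPKM in any library.

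A promoter sequence was found in RefSeq for 25 of the 32 members, among them 3 of the 8 inducible targets, Acot1, Acot2 and Pdk4. The direct repeat bound by PPAR-alpha and its partner, written AGGTCANAGGTCA and searched on both strands in the 250 bases before each start, matched exactly in 0 of 25 members and in 0.041% of 27025 genes. With at most 2 mismatches it was found upstream of 2 members, Cd36 and Etfa, and of 3.719% of all genes. These matches describe letters in a short window and say nothing of sites elsewhere.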

How the data were processed

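The deposited table holds FPKM values made by the authors, 1 column per library, scaled to transcript length and library total. Per the submitters' processing notes the build was GRCm38, and per the labels' protocols RNA of integrity number 7 or more was depleted of ribosomal RNA and made into stranded libraries. For the aligner, counter, gene annotation and strand setting, the choice is not given in the sources used here. Columns were matched to samples by the code in each title.

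Values were taken as log2(FPKM + 1), which understates changes of low genes. Genes with a mean of at least 0.5 FPKM (13290) were fitted with limma (trend, two-sided, 3 residual degrees of freedom, Benjamini-Hochberg at 0.05). Differences are diosmetin minus vehicle. The procedure was checked on simulated data. Depth came from low values: of 1533 genes with a mean under 0.05 FPKM, 91.0% were whole multiples of a step within 2% and 0.1 fragments. No count test was run on FPKM. Of 21878 genes, 21727 matched RefSeq (GRCm38.p6) by GeneID. Coding identity came from global alignment of GENCODE M21 transcripts.

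The members and lists were chosen with earlier results of these data known. Besides all members, 2 kinds of gene could be named. These were the 3 other pathway genes with the smallest p per list and direction and the 3 most abundant markers of each list. Fabp1, Ucp2, Rxra, Dbp, Arntl, Ttr, Apoa1 and markers of low level were named after their values were seen. R 4.3.3, limma 3.58.1, Python 3.11.15, numpy 2.4.6, pandas 2.3.3, Biopython 1.88 and matplotlib 3.10.9 were used. Alternatives were another pseudocount, filters, scalings, variance settings and leaving out each library. Some genes of the lists are not reported here.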

Additional observations from a re-analysis of the deposited data

How the results depend on the processing

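No member passed at an adjusted p of 0.05 under any of the 13 alternatives, the smallest adjusted p being 0.1998 (limma), and 12 of 32 members kept the sign of their difference under all 13. Leaving out 1 library at a time moved the number of members at an unadjusted p under 0.05 from 0 to 11 (11 without vehicle replicate 2, against 11.01% of all genes; 5 without diosmetin replicate 1, against 8.98%; 0 without diosmetin replicate 2 or 3, against 2.90% and 5.12%) and the number without overlap from 4 to 23. Without vehicle replicate 2, 23 members did not overlap against 62.4% of all genes, and without vehicle replicate 1, 9 against 51.0%. The inducible median ranged from -0.081 to 0.77, the enzyme median from -0.066 to 0.14, their difference from -0.015 to 0.63, the median of other pathway genes from -0.029 to 0.035, and their number at an unadjusted p under 0.05 from 2 to 21. At that level there were 0 members with median-of-ratios scaling, quantile normalization or no variance trend, and 1 after rescaling to TPM, where 5 members did not overlap. Without a variance trend 5 other pathway genes stood at that level. With median-of-ratios scaling the medians were -0.0040 for all genes, -0.0093 for the enzymes and -0.040 for other pathway genes, and the median of all genes was 0.0072 after quantile normalization.

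Single differences changed sign with median-of-ratios scaling for Hadhb (-0.027), Acaa2 (-0.021) and Cyp4a10 (-0.034), after rescaling to TPM for Cpt2 (0.0035), after quantile normalization for Cpt2 (0.0065) and Cyp4a10 (-0.012), and with array weights for Acaa2 (-0.013) and Cyp4a10 (-0.014). Over the libraries left out, 13 members changed sign without vehicle replicate 1 and 5 without vehicle replicate 2. The ranges were -0.59 to 0.15 for Acaa1b, -0.22 to 0.21 for Acaa2, -0.10 to 0.41 for Acadl, -0.15 to 0.041 for Acadm, -0.20 to 0.035 for Acads, -0.011 to 1.28 for Acot1, -0.45 to 0.032 for Cd36, -0.077 to 0.026 for Cpt1a, -0.20 to 0.19 for Cpt2, -0.40 to 0.44 for Cyp4a10, -0.074 to 1.06 for Cyp4a14, -0.074 to 0.60 for Eci1, -0.0025 to 0.17 for Eci2, -0.35 to 0.93 for Ehhadh, -0.074 to 0.19 for Etfb, -0.22 to 0.12 for Etfdh, -0.12 to 0.49 for Pdk4, -0.010 to 0.34 for Plin2 and -0.088 to 1.07 for Vnn1. The cause of these changes was not tested, and a lone vehicle library is assumed to vary like the other group. No paired analysis was possible because the labels give the groups no shared replicate numbers.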
